A study of Mus musculus with 9 samples.

Results

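The genes described here belong to the NRF2 pathway. They were chosen by symbol: Nfe2l2, which encodes NRF2, its inhibitor Keap1, and the target genes Nqo1, Hmox1, Gclc, Gclm, Slc7a11, Txnrd1, Srxn1 and G6pdx. All 10 were found among the 24421 rows of the deposited table, and all 10 passed the filter on low values. Their RNA was measured in tdTomato-positive proximal tubular cells sorted from the kidneys of 9 mice, 3 db/m mice, 3 db/db mice and 3 db/db-dapa mice. Mice of both db/db groups are homozygous for the Lepr db mutation of the leptin receptor, and db/m mice are their heterozygous, non-diabetic controls. The db/db-dapa mice received dapagliflozin, an inhibitor of the glucose transporter SGLT2, at 1.5 mg/kg/day in drinking water for 8 weeks, whereas the db/db mice received vehicle for 8 weeks. These groups are also called treated and untreated db/db mice. The sources used here give neither the drinking water of the db/m mice nor the age at which the animals were killed. The label C57BL/6 is given for every mouse. All groups also carried SLC34a1GCE, a CreERT2 cassette in the Slc34a1 locus, and R26tdTomato, and all received tamoxifen at 3 mg in 5 injections from 8 weeks of age. The reporter therefore marks cells in which Slc34a1 was active when tamoxifen was given, and every group carries this insertion in Slc34a1. The labels name the tissue only as kidney.

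NRF2 is a transcription factor that is made continuously and held at a low protein level by KEAP1, which hands it to a CUL3 ubiquitin ligase. Oxidants and electrophiles modify KEAP1, and NRF2 then accumulates, pairs with a small MAF protein and binds antioxidant response elements near genes for glutathione synthesis, thioredoxin reduction, quinone reduction, heme breakdown and NADPH supply. NRF2 activity is thus set largely at the level of its protein, which was not measured here. The proximal tubule, with its dense mitochondria and its load of filtered and secreted compounds, is a segment of the nephron in which this pathway is well studied.

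The promoter sequences of these genes are shown because the antioxidant response element is what the target genes share. RefSeq windows of 250 bases before to 50 bases after a transcription start, on GRCm38.p6, were available for 8 of the 10 genes. TGACNNNGC, the core of the element, was searched on both strands, as was the related letter string TGAGTCAGC, which was added after the first search and contains the AP-1 motif TGAGTCA. At least 1 of the motifs was found in 5 of the 10 windows of these genes (Txnrd1 has 3 windows) and in 12.7% of all 32851 windows. TGACNNNGC alone was found in 12.4% of all windows and TGAGTCAGC in 0.414%. The matches of Nfe2l2, Gclm and Srxn1 printed here lie before the gene in the GENCODE annotation, and that of Txnrd1 lies before an internal start, in an intron of longer transcripts. Each sequence runs 5′ to 3′ along the gene's strand with up to 20 bases on each side, and capitals mark the motif, which lies on the opposite strand in Gclm and Txnrd1.
Nfe2l2, chr2:75704875-75704913: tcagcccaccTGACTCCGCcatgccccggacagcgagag
Gclm, chr3:122245403-122245451: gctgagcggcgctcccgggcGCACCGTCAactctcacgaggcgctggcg
Txnrd1, chr10:82859094-82859142: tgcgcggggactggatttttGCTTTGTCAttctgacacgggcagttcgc
Srxn1, chr2:152105459-152105507: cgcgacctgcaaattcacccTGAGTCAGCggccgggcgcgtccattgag
The motif starts 240 bases before the start of Nfe2l2, 134 before that of Gclm, 92 before that of Txnrd1 and 45 before that of Srxn1. G6pdx had a match 57 bases before its RefSeq start, and Srxn1 had another after its start; both lie in annotated UTR and are not printed. No match was found in the windows of Keap1, Nqo1 and Slc7a11, which says only that these letters are not in these windows. A match describes the sequence and does not show that NRF2 binds there.

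The libraries held 2733349 to 9033123 estimated counts, and the smallest, db/db replicate 1, had less than any other mouse. Levels are given in CPM, counts scaled to a common library size with TMM factors. The 8 proximal tubule markers listed, which include Slc34a1, Lrp2 and Slc5a2, were all detected and summed to 12048 to 13519 CPM in db/m, 14885 to 18741 in db/db and 15986 to 20087 in db/db-dapa mice. Markers of other cells were present at lower levels, as 10 leukocyte markers summed to 104 to 507 CPM over all mice, and none of these 10 markers was at 0 in every mouse. Larger sums were those of 5 thick ascending limb and distal tubule markers. They were 1050 to 2359 CPM in db/m, 760 to 1640 in db/db and 769 to 887 in db/db-dapa mice. The 5 collecting duct markers summed to 127 to 545 CPM over all mice. The part of these cells in the values of the 10 genes was not tested. Within a group, the mice correlated at r = 0.955 to 0.992 over the tested genes (Pearson, log scale), with the lowest value between db/db replicates 1 and 3. Db/db replicate 3 correlated more closely with db/db-dapa replicates 2 and 3 (r = 0.989 and 0.991) than with db/db replicates 1 and 2 (0.955 and 0.964). In sorted bulk cells, fewer cells of a type and less RNA per cell cannot be told apart. Genes were compared with edgeR's quasi-likelihood test in 1 fit of all 9 mice, with p adjusted over the 15583 genes tested. Called genes are those that changed more than 2-fold with an adjusted p under 0.1.

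None of the 10 genes was called in any comparison, and none reached an adjusted p under 0.1 at any fold. Between db/db and db/m mice, 1.24% of all tested genes were called and 1.67% had an adjusted p under 0.1. Between treated and untreated db/db mice, these shares were 0% and 0%. Between treated db/db and db/m mice, they were 1.05% and 1.31%. Of the 10 genes, 1 (Gclm) had an unadjusted p under 0.05 between db/db and db/m mice, and 0 had one in either of the other comparisons, against 2141, 808 and 2828 of all tested genes. DESeq2 and limma on log2(CPM + 1) also gave 0 of the 10 genes at an adjusted p under 0.1 in each comparison. Limma with a weight for each mouse gave 0 between db/db and db/m, 2 (Gclc and Txnrd1) between treated and untreated db/db mice, and 1 (Gclc) between treated db/db and db/m mice, each at less than 2-fold. That fit also called more of all tested genes. It called 449 between treated and untreated db/db and 1619 between treated db/db and db/m mice, against 0 and 164 in edgeR's fit. Its share of all tested genes under that adjusted p at any fold is not given here.

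Nfe2l2 was the steadiest of the 10 genes. Nfe2l2, at 75675513 to 75704641 of chromosome 2 (minus strand), was at 77.2, 80.6 and 84.6 CPM in db/m replicates 1, 2 and 3. It was at 82.2, 77.0 and 92.8 CPM in db/db and at 92.4, 74.96 and 81.7 CPM in db/db-dapa mice. The highest mouse exceeded the lowest by 1.24-fold, and all 3 groups overlapped. The log2 fold change of Nfe2l2 was 0.06 ± 0.16 (SE) between db/db and db/m mice (edgeR, adjusted p = 0.898), with a 95% interval from -0.29 to 0.40. It was -0.02 ± 0.16 between treated and untreated db/db mice (edgeR, adjusted p = 0.986), with an interval from -0.36 to 0.32. Of the 10 genes, Nfe2l2 had the smallest range of group means, 0.053 on the log2 scale.

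Keap1, at 21229730 to 21239361 of chromosome 9 (minus strand), was at 43.1, 36.6 and 53.3 CPM in db/m mice. It was at 36.0, 34.8 and 46.0 CPM in db/db and at 38.9, 51.9 and 46.7 CPM in db/db-dapa mice. The groups overlapped in each comparison. Its log2 fold change was -0.18 ± 0.20 between db/db and db/m mice (edgeR, adjusted p = 0.728). With treatment, against untreated db/db mice, it was 0.23 ± 0.20 (edgeR, adjusted p = 0.854).

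In the first step of glutathione synthesis, an enzyme joins glutamate to cysteine, which SLC7A11 helps to bring in as cystine. GCLC is the catalytic and GCLM the modifier subunit of this enzyme. Gclm, at 122245557 to 122270732 of chromosome 3 (plus strand), was at 227, 193 and 127 CPM in db/m mice. It was at 81.9, 138 and 136 CPM in db/db and at 134, 155 and 173 CPM in db/db-dapa mice. The lowest value was that of db/db replicate 1, the smallest library, and the highest value of the db/db mice lay above the lowest of the db/m mice. The log2 fold change between db/db and db/m mice was -0.61 ± 0.25 (edgeR, adjusted p = 0.318), with a 95% interval from -1.17 to -0.05. Without db/db replicate 1 it was -0.41. Between treated and untreated db/db mice the log2 fold change of Gclm was 0.37 ± 0.25 (edgeR, adjusted p = 0.854), and between treated db/db and db/m mice it was -0.24 ± 0.25 (edgeR, adjusted p = 0.61). The first was 0.165 when db/db replicate 1 was left out, and the second -0.054 when db/m replicate 1 was.

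Gclc, at 77754535 to 77794485 of chromosome 9 (plus strand), was at 148, 134 and 91.7 CPM in db/m mice. It was at 90.4, 119 and 150 CPM in db/db and at 121, 190 and 208 CPM in db/db-dapa mice. Replicates 2 and 3 of the db/db-dapa mice were above all other mice, and replicate 1 lay within the range of the other groups. For db/db against db/m mice, the log2 fold change was -0.05 ± 0.26 (edgeR, adjusted p = 0.948). It was 0.53 ± 0.26 between treated and untreated db/db (edgeR, adjusted p = 0.854) and 0.47 ± 0.26 between treated db/db and db/m mice (edgeR, adjusted p = 0.341). Without db/db-dapa replicate 3, these last values were 0.39 and 0.33.

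Slc7a11, at 49892526 to 50443614 of chromosome 3 (minus strand), was near the limit of detection. Its estimated counts were 12.5 to 17.0 in all 9 mice, although the libraries differed in size. In CPM this gave 2.36, 2.44 and 3.55 in db/m, 4.08, 3.0 and 2.02 in db/db and 2.41, 2.1 and 1.58 in db/db-dapa mice. The smallest library had the highest CPM and the largest library the lowest. For db/db against db/m mice, the log2 fold change was 0.09 ± 0.42 (edgeR, adjusted p = 0.948). Treated and untreated db/db mice differed by -0.53 ± 0.42 (edgeR, adjusted p = 0.854), with an interval from -1.46 to 0.39, which reaches a 2-fold decrease and leaves out a 2-fold increase.

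The thioredoxin genes act on oxidized protein thiols. Txnrd1 encodes the cytosolic thioredoxin reductase, and Srxn1 encodes sulfiredoxin, which restores overoxidized peroxiredoxins. Txnrd1, at 82833951 to 82897712 of chromosome 10 (plus strand), was at 178, 170 and 127 CPM in db/m mice. It was at 101, 168 and 189 CPM in db/db and at 158, 244 and 233 CPM in db/db-dapa mice. As for Gclc, replicates 2 and 3 of the db/db-dapa mice were the highest of the 9 and db/db replicate 1 was the lowest. Its log2 fold change was -0.05 ± 0.26 between db/db and db/m mice (edgeR, adjusted p = 0.952). It was 0.47 ± 0.26 between treated and untreated db/db mice (edgeR, adjusted p = 0.854), with an interval from -0.09 to 1.03 and a range from 0.245 to 0.665 when 1 mouse was left out.

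Srxn1, at 152105516 to 152111376 of chromosome 2 (plus strand), was at 121, 132 and 73.3 CPM in db/m mice. It was at 90.1, 98.4 and 100 CPM in db/db and at 112, 162 and 122 CPM in db/db-dapa mice. Every db/db-dapa mouse was above every db/db mouse, and the db/m mice spanned the db/db range. The log2 fold change between treated and untreated db/db mice was 0.46 ± 0.23 (edgeR, adjusted p = 0.854), with an interval from -0.05 to 0.96 and a range from 0.288 to 0.573 when 1 mouse was left out. Srxn1 was the only one of the 10 genes whose groups did not overlap in this comparison, and 10.2% of all tested genes did not overlap there. For db/db against db/m mice, its log2 fold change was -0.17 ± 0.23 (edgeR, adjusted p = 0.773).

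Hmox1 encodes the inducible heme oxygenase, which opens the heme ring and releases iron, carbon monoxide and biliverdin. It lies at 75093621 to 75100589 of chromosome 8 (plus strand), and it varied most, with 4.85-fold between the highest and the lowest mouse. Hmox1 was at 99.5, 102 and 36.4 CPM in db/m, 58.1, 124 and 69.0 in db/db and 120, 121 and 177 in db/db-dapa mice. Every db/db-dapa mouse was above every db/m mouse, while the second db/db mouse lay between the treated mice. Its log2 fold change was 0.81 ± 0.38 between treated db/db and db/m mice (edgeR, adjusted p = 0.28), with an interval from -0.01 to 1.64. Without db/m replicate 3, the lowest mouse, it was 0.47. It came to 0.73 ± 0.38 between treated and untreated db/db mice (edgeR, adjusted p = 0.854). Between db/db and db/m mice it was 0.08 ± 0.38 (edgeR, adjusted p = 0.947). Hmox1 was the only one of the 10 genes whose groups did not overlap between treated db/db and db/m mice, and 28.1% of all tested genes did not overlap there.

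Macrophages that clear red blood cells are also rich in Hmox1, so leukocyte and red blood cell markers were set beside it. The 10 leukocyte markers summed to 507, 391 and 223 CPM in db/m, 391, 367 and 138 in db/db and 343, 181 and 104 in db/db-dapa mice. The mouse with the most Hmox1, db/db-dapa replicate 3, had the lowest sum of leukocyte markers. Most of that sum was Cd74 (70.6 of 104 CPM). Cd74, Ptprc, Adgre1, C1qa, C1qb, C1qc, Csf1r and Mrc1 were each at their lowest of the 9 mice in that mouse. Lyz2 was at 7.24 CPM there and was lower in db/m replicate 3 and db/db replicate 3 (6.44 and 6.57 CPM). The macrophage marker Cd68, at 9.28 CPM there, was higher only in db/m replicates 1 and 2 (11.7 and 10.3 CPM). In db/db-dapa replicate 3 the sum of 7 red blood cell entries, 38.2 CPM, was also the lowest. Db/db replicate 2, with the second highest Hmox1, had the highest such sum, 1868 CPM. These sums count values more than once, as Hba-a1 and Hba-a2, Hbb-bs and Hbb-b1, and Hbb-bt and Hbb-b2 were identical in every mouse. Hba-a1 alone was at 10.2 and 522 CPM in these mice, also the lowest and the highest. These are values of single mice, and the part of leukocytes and red blood cells in the values of Hmox1 was not tested.

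Nqo1 encodes a quinone reductase and lies at 107388225 to 107403206 of chromosome 8 (minus strand). It was at 44.6, 35.6 and 52.0 CPM in db/m, 21.4, 55.0 and 53.0 in db/db and 41.9, 50.9 and 59.6 in db/db-dapa mice. One mouse, db/db replicate 1, stood below the other 8, and the other two db/db mice were at the level of the db/db-dapa mice. The log2 fold change was -0.01 ± 0.30 between db/db and db/m (edgeR, adjusted p = 0.993) and 0.22 ± 0.30 between treated and untreated db/db mice (edgeR, adjusted p = 0.898). Without db/db replicate 1 these values were 0.30 and -0.09. The sign between db/db and db/m mice also turned without db/m replicate 3 (0.12), with total counts (0.092) and with the trend by transcript length removed (0.21).

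G6pdx, at 74409483 to 74429194 of chromosome X (minus strand), encodes glucose-6-phosphate dehydrogenase, which makes NADPH in the pentose phosphate pathway. It was at 22.5, 27.4 and 25.3 CPM in db/m, 20.4, 26.6 and 27.0 in db/db and 26.8, 29.8 and 27.5 in db/db-dapa mice. The groups overlapped in each comparison. For db/db against db/m mice, the log2 fold change was -0.01 ± 0.18 (edgeR, adjusted p = 0.984). It was 0.17 ± 0.18 between treated and untreated db/db mice (edgeR, adjusted p = 0.868), with an interval from -0.21 to 0.56.

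**Figure D1:**
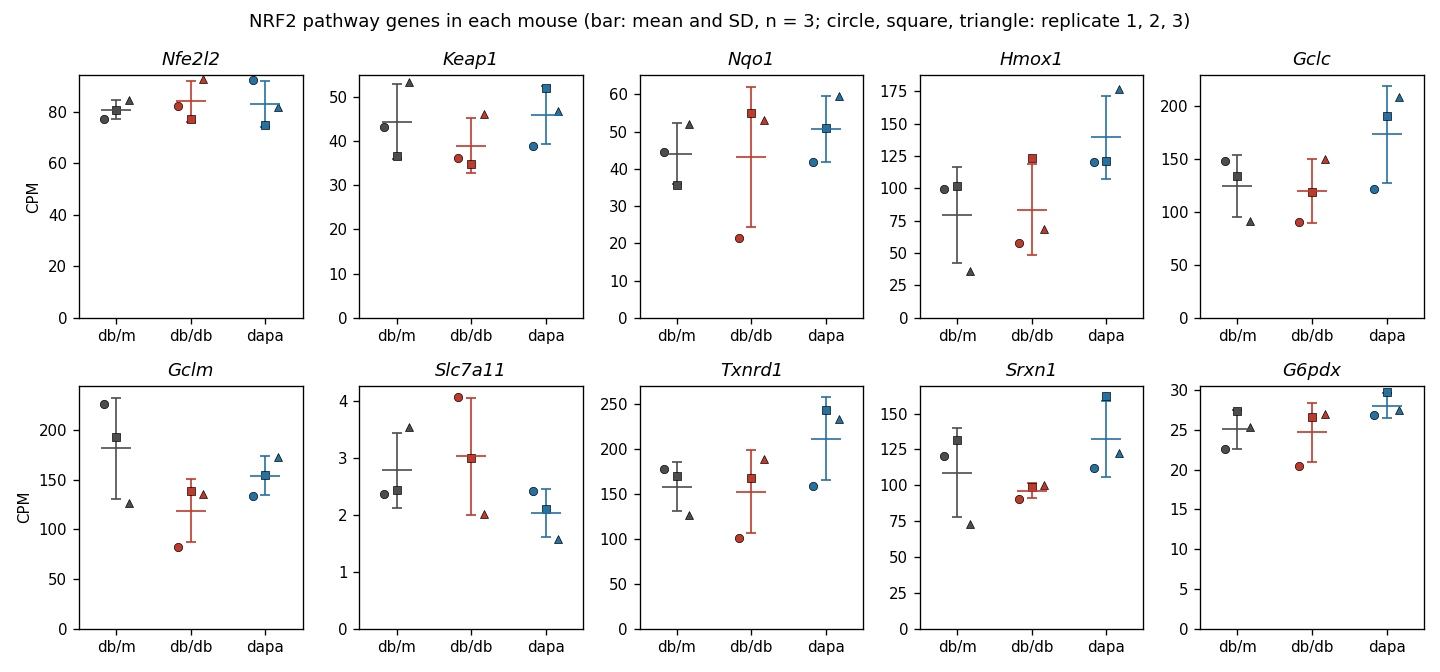
CPM of each of the 10 genes (vertical axis, starting at 0) in the 3 mice of each group, where "dapa" stands for db/db-dapa, points are mice and bars are the mean and SD. Nfe2l2 lies between 74.96 and 92.8 CPM in all mice, whereas Hmox1 spans 36.4 to 177 CPM, with all db/db-dapa mice above all db/m mice.

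Per kilobase of the longest annotated transcript, the mean levels over all 9 mice, groups together, were as follows. Hmox1 was highest at 64.2 CPM per kb, followed by Txnrd1 at 48.1, Gclc at 40.7 and Srxn1 at 39.95 CPM per kb. Nfe2l2 was at 33.4, Nqo1 at 29.6 and Gclm at 27.1 CPM per kb. Keap1 at 11.9 and G6pdx at 9.78 CPM per kb were lower, and Slc7a11 at 0.284 CPM per kb was far below the others. Neighbours in this order were not the same within each group: in db/m mice Srxn1 (38.6 ± 11.1 CPM per kb, SD, n = 3) was above Gclc (36.4 ± 8.56), and Gclm (32.6 ± 9.11) was level with Nfe2l2 (32.6) and above Nqo1 (28.4 ± 5.28), differences within the spread of the mice. The target genes, other than Slc7a11 and G6pdx, were thus expressed at a level of the same order as Nfe2l2 in all 3 groups, db/m mice included.

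In their direction, the 10 genes were split between db/db and db/m mice, where 3 had a log2 fold change above 0 and 7 below. Of all tested genes, 51.6% were above 0 in that comparison. The median log2 fold change of the 10 genes was -0.03, against 0.02 for all tested genes, and 0 of the 10 had groups that did not overlap, against 16.4% of all. Between treated and untreated db/db mice, 8 of the 10 were above 0, against 48.7% of all tested genes, with a median of 0.30 against -0.01. The exceptions were Nfe2l2 and Slc7a11. Between treated db/db and db/m mice 8 were above 0 as well, against 48.5% of all, with a median of 0.18 against -0.02, and the exceptions were Gclm and Slc7a11. The comparisons share mice, so that these counts are not separate evidence, and several of these genes rise and fall together from mouse to mouse.

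The 95% intervals show what the design could resolve. Between db/db and db/m mice, a 2-fold difference in either direction lay outside the interval for 8 of the 10 genes, the exceptions being Gclm and Slc7a11. This held for 6 between treated and untreated db/db mice, the exceptions being Hmox1, Gclc, Slc7a11 and Txnrd1. Between treated db/db and db/m mice it held for 7, the exceptions being Hmox1, Gclc and Slc7a11.

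**Figure D2:**
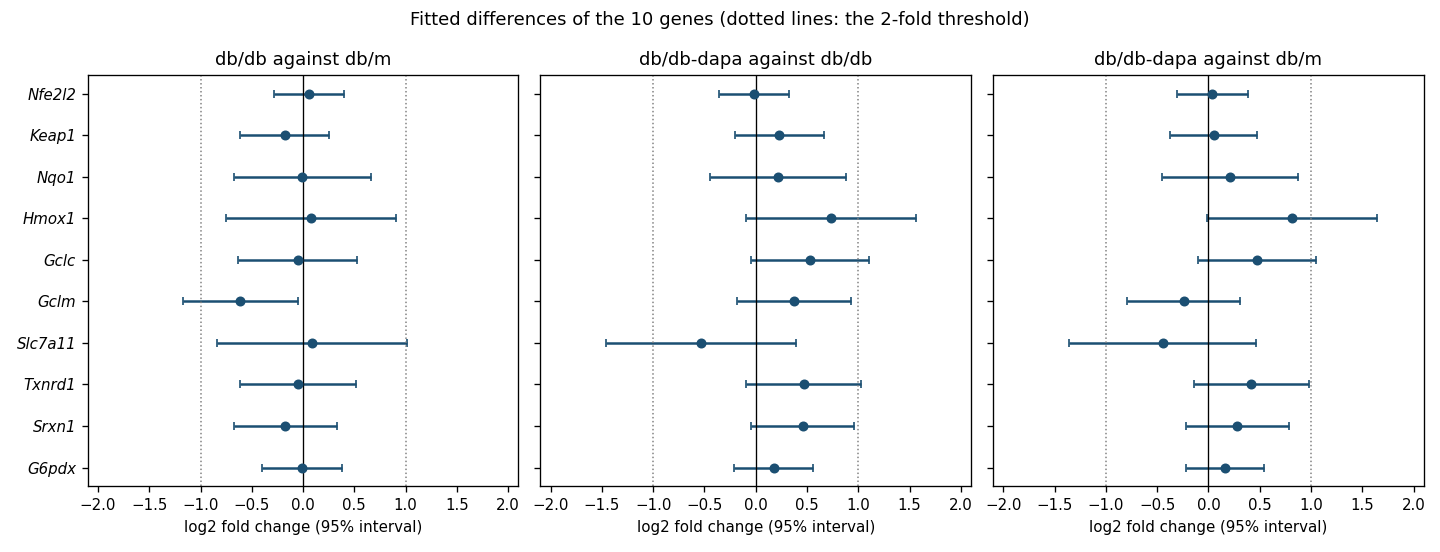
Log2 fold change of each gene (horizontal axis) with its 95% interval in the 3 comparisons, from edgeR's fit of all 9 mice, with dotted lines at the 2-fold threshold. The one interval that leaves out 0 is that of Gclm between db/db and db/m mice (-1.17 to -0.05), and 8 of 10 values lie above 0 between treated and untreated db/db mice.

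Single mice stood out across several of the genes. Db/db replicate 1 was the lowest of the 9 mice for 5 of the genes, Nqo1, Gclc, Gclm, Txnrd1 and G6pdx, and the highest for Slc7a11. Its median deviation from the gene means was -0.45 on the log2(CPM + 1) scale. Db/db-dapa replicates 2 and 3 had median deviations of 0.24 and 0.20 and together held the highest value of 6 genes, Txnrd1, Srxn1 and G6pdx in replicate 2 and Nqo1, Hmox1 and Gclc in replicate 3. Db/db-dapa replicate 1 was the highest for none of the 10, with a median deviation of -0.07. The third db/m mouse was the lowest for Hmox1 and Srxn1 and the highest for Keap1.

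Other measures moved with these mice. The sum of the proximal tubule markers was 17917 and 20087 CPM in db/db-dapa replicates 2 and 3, against 15986 in replicate 1, and the sum of 7 markers of the S3 segment was lowest in db/db replicate 1, at 1703 CPM against 3055 to 6581 in the other mice. Db/db-dapa replicate 1 stood apart from the other two treated mice in podocyte markers (220 CPM against 26.9 and 16.5), in endothelial markers (174 against 52.0 and 42.0) and in 13 immediate-early and heat-shock genes (10025 against 5666 and 5875). The sum of these 13 genes was 5600 to 7222 CPM in db/m and 4556 to 8743 in db/db mice, lowest in db/db replicate 1. Long genes were also over-represented against short genes to a different degree in each mouse. For each mouse, the median deviation of genes below the lower quartile of transcript length was subtracted from that of genes above the upper quartile. The difference (log2) was -0.29, -0.05 and -0.51 in db/m, -0.11, -0.19 and 0.48 in db/db and -0.01, 0.28 and 0.36 in db/db-dapa mice. With this trend taken out, the log2 fold changes between treated and untreated db/db mice were 0.51 for Gclc, 0.45 for Txnrd1 and 0.83 for Hmox1, and 0 of the 10 genes reached an adjusted p under 0.1. The part of the marker levels in these values was not tested.

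**Figure D3:**
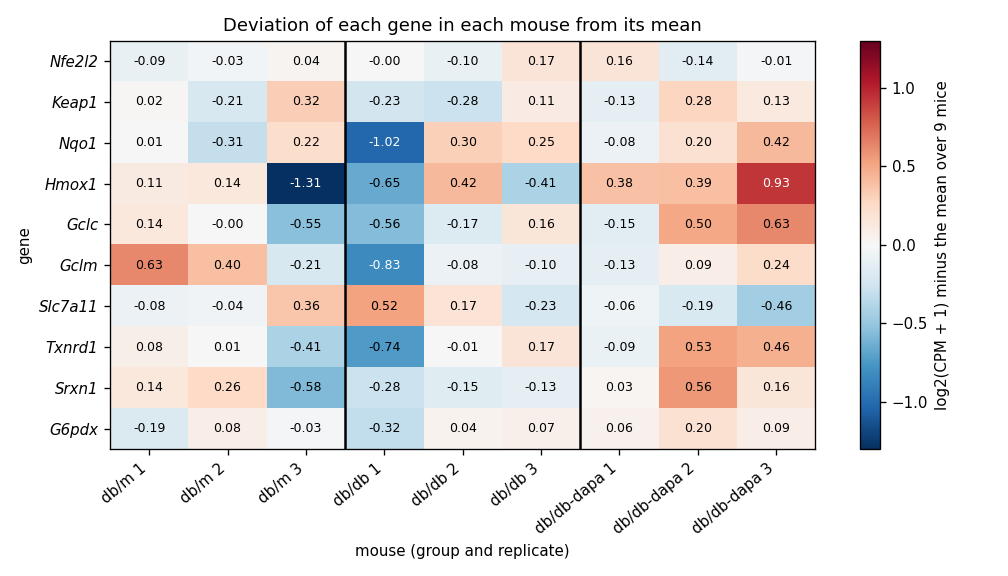
Deviation of each gene (rows) in each mouse (columns) from its mean over the 9 mice, as log2(CPM + 1), with the number printed in each cell and groups set apart by black lines. The column of db/db replicate 1 is blue for most genes (-1.02 for Nqo1, -0.83 for Gclm), and those of db/db-dapa replicates 2 and 3 are mostly red.

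Across the 9 mice, Gclc and Txnrd1 followed each other most closely of all pairs (Pearson's r = 0.958 on log2(CPM + 1), n = 9, a description that holds groups and library differences together). Gclc and Srxn1 had r = 0.799, and Hmox1 had r = 0.728 to 0.752 with Gclc, Txnrd1 and Srxn1. Nfe2l2 did not run along with its targets, with r from -0.424 with Srxn1 to 0.018 with G6pdx. Slc7a11 ran against Gclc (r = -0.941) and Txnrd1 (r = -0.921), and its CPM followed library size as described. Of all 15573 tested genes outside the 10, those most like Hmox1 were Slc38a2 (r = 0.983), Cenpc1 (0.965) and Etfa (0.96). Those most like Gclm were Rybp (0.977), Psmc6 (0.967) and Commd8 (0.957), and those most like Gclc were B430010I23Rik (0.978), Kpnb1 (0.965) and Ugdh (0.965). An r over 0.9 was found for 10 genes with Hmox1, 25 with Gclm and 154 with Gclc.

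The subunits of the enzyme that joins glutamate to cysteine were also compared with each other. The ratio of Gclc to Gclm, in CPM and within a mouse, was 0.653, 0.696 and 0.725 in db/m mice. It was 1.10, 0.858 and 1.10 in db/db and 0.908, 1.23 and 1.20 in db/db-dapa mice. Every diabetic mouse, treated or not, was thus above every db/m mouse, and the 2 diabetic groups overlapped. The means were 0.691 ± 0.0363 in db/m, 1.02 ± 0.141 in untreated and 1.11 ± 0.178 in treated db/db mice (SD over 3 mice per group). This ratio is free of the scaling of the libraries, is not a comparison of molecule numbers between the genes, and was singled out after its values were seen, so it was not tested. Of the 45 ratios among the 10 genes, 3 did not overlap between db/db and db/m, 1 between treated and untreated db/db and 7 between treated db/db and db/m mice. These are 6.67%, 2.22% and 15.6% of the ratios, each below the share of single genes without overlap in that comparison (16.4%, 10.2% and 28.1%). The measures are unlike, as the ratios share genes and are free of library scaling. Ratios among other genes were not computed. The 3 ratios that did not overlap between db/db and db/m mice, and did not overlap between treated db/db and db/m mice either, all held Gclm, as the ratios of Gclm to Txnrd1 and to Srxn1 were lower in both diabetic groups. The ratio of Gclm to Txnrd1 was 0.998 to 1.27 in db/m, 0.719 to 0.824 in db/db and 0.637 to 0.843 in db/db-dapa mice. That of Gclm to Srxn1 was 1.46 to 1.88 in db/m mice and came close to this range in the second db/db (1.41) and the third db/db-dapa mouse (1.41). Of the transcript models, that of Gclm (5589 bases) is longer than that of Gclc (3423 bases). With the trend by transcript length taken out, the log2 fold change between db/db and db/m mice was -0.79 for Gclm and -0.07 for Gclc.

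A list of 61 other genes of the pathway, written from their known roles but with earlier results of these data known, held 59 that could be tested. Gpx2 and Aldh3a1 were at 0 in all mice. Between db/db and db/m mice, 2 of the 59 were called, Me1, which was lower, and Abcc4, which was higher, against 1.24% of all tested genes. Between treated and untreated db/db mice 0 were called, against 0% of all. Between treated db/db and db/m mice 1 was, Abcc4, against 1.05% of all. Before adjustment, p was under 0.05 for 16, 2 and 17 of the 59 genes in the 3 comparisons, against 2141, 808 and 2828 of all 15583 tested genes. The median log2 fold changes of the 59 genes were -0.04, 0.05 and 0.01 in these comparisons. Of these genes 27, 34 and 30 lay above 0, against 51.6%, 48.7% and 48.5% of all tested genes. Without overlap, 5 of the 59 were higher and 7 lower in db/db than in db/m mice. These counts were 3 and 0 between treated and untreated db/db, and 10 and 12 between treated db/db and db/m mice. Of all tested genes, 16.4%, 10.2% and 28.1% did not overlap in these comparisons.

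Me1 encodes the cytosolic malic enzyme, which, like G6pdx, makes NADPH, and which is also an enzyme of fatty acid synthesis. It was at 607, 620 and 567 CPM in db/m, 228, 307 and 345 in db/db and 430, 465 and 526 in db/db-dapa mice. None of the 3 groups overlapped with another, and the treated mice lay between the others. Of all tested genes, 16.4% did not overlap between db/db and db/m mice. The share was 10.2% between treated and untreated db/db and 28.1% between treated db/db and db/m mice. Me1 fell in db/db against db/m mice, by 1.03 on the log2 scale (SE 0.19, edgeR, adjusted p = 0.0308). Between treated and untreated db/db mice the log2 fold change was 0.69 ± 0.19 (edgeR, adjusted p = 0.854), and between treated db/db and db/m mice it was -0.34 ± 0.19 (edgeR, adjusted p = 0.341). The fall did not pass the threshold of the adjusted p without db/m replicate 1 or with only the 2 groups compared in the fit, at log2 fold changes of -1.015 and -1.03. It passed that threshold at less than 2-fold without db/db replicate 1 (-0.87), without db/m replicate 2 (-0.999) and with total counts (-0.92). Between treated and untreated db/db mice, Me1 passed it at less than 2-fold in limma with weights (0.79, adjusted p = 0.0854). It also did so in edgeR without db/db replicate 3 (0.84, adjusted p = 0.0829). Between treated db/db and db/m mice, Me1 passed it in limma with weights (-0.35, adjusted p = 0.0797). The S3 markers were summed to 4859 to 6581 CPM in db/m, 1703 to 5052 in db/db and 3733 to 5024 in db/db-dapa mice, and their part in the values of Me1 was not tested.

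Abcc4, which encodes the multidrug resistance protein MRP4, an exporter of organic anions, was at 32.3, 49.4 and 26.9 CPM in db/m, 72.1, 78.0 and 115 in db/db and 75.5, 91.6 and 91.6 in db/db-dapa mice. Both diabetic groups were above the db/m mice without overlap and overlapped with each other. Abcc4 rose by 1.29 ± 0.25 on the log2 scale in db/db (edgeR, adjusted p = 0.0412) and by 1.25 ± 0.25 in db/db-dapa against db/m mice (edgeR, adjusted p = 0.0621). Its log2 fold change between treated and untreated db/db mice was -0.04 ± 0.24 (edgeR, adjusted p = 0.982), with an interval from -0.57 to 0.50. Without db/m replicate 1 or db/m replicate 3 the call was lost in both comparisons with db/m mice, at 1.21 and 1.11 for db/db and 1.17 and 1.08 for db/db-dapa mice. It was also lost for db/db with only the 2 groups compared in the fit (1.28), and for db/db-dapa without db/db-dapa replicate 2 (1.21) or 3 (1.22).

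**Figure D4:**
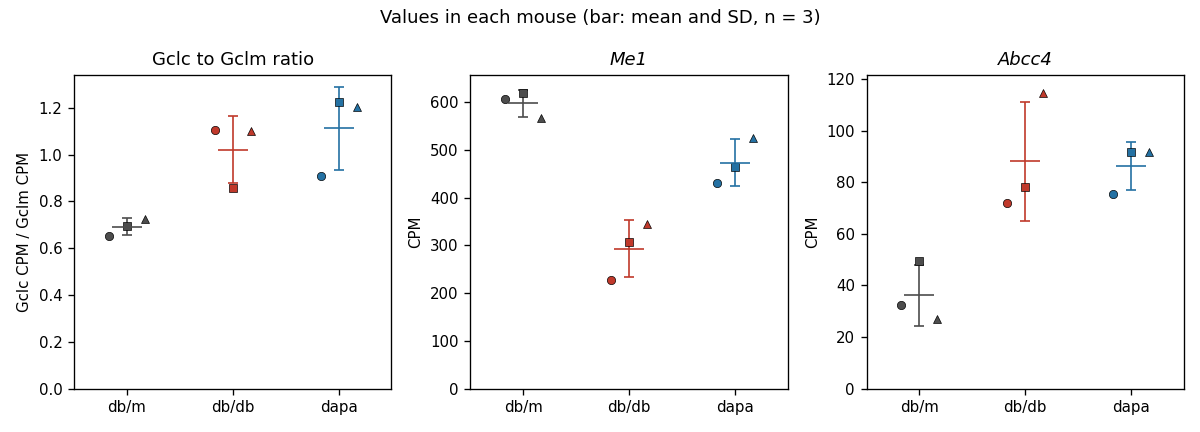
The ratio of Gclc to Gclm and the CPM of Me1 and Abcc4 (vertical axes, starting at 0) in each mouse, with the mean and SD of 3 mice per group. The ratio and Abcc4 are higher in every diabetic mouse than in every db/m mouse, and Me1 is at 567 to 620 CPM in db/m, 228 to 345 in db/db and 430 to 526 in db/db-dapa mice. Of all tested genes, 16.4% do not overlap between db/db and db/m mice. The share is 10.2% between treated and untreated db/db and 28.1% between treated db/db and db/m mice.

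By role, the 13 regulators, which include the MAF partners, BACH1 and parts of the ligases that act on NRF2, had 0 calls in each comparison, and their log2 fold changes lay between -0.39 and 0.29 in db/db against db/m mice. Of the 6 genes of glutathione and thioredoxin reactions, 5 were tested and 0 called, and 4 of the 5 lay below 0 between db/db and db/m mice, with a median log2 fold change of -0.39. Of all tested genes, 51.6% lay above 0 in that comparison. The following 3 were named after their values were seen. Gss, the glutathione synthetase, had a log2 fold change of -0.49 ± 0.20 (edgeR, adjusted p = 0.318) and Prdx1, a peroxiredoxin, one of -0.54 ± 0.21 (edgeR, adjusted p = 0.282). For both, every db/db mouse was below every db/m mouse, and 16.4% of all tested genes did not overlap in that comparison. Gsr, the glutathione reductase, went the other way: it was at 175, 168 and 135 CPM in db/m, 205, 254 and 292 in db/db and 225, 286 and 307 in db/db-dapa mice. Its log2 fold change was 0.65 ± 0.20 in db/db (edgeR, adjusted p = 0.18) and 0.77 ± 0.20 in db/db-dapa against db/m mice (edgeR, adjusted p = 0.112), and neither passed the threshold. Of the 5 genes of NADPH supply, Me1 alone was called. Of the 6 genes of heme and iron and the 4 other targets, 0 were called in any comparison.

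Of the 23 genes of conjugation and detoxification, 22 were tested and 0 were called. Gsta2, which encodes a glutathione transferase, had the widest spread of those named, at 11.3, 104 and 7.99 CPM in db/m, 90.7, 708 and 131 in db/db and 84.6, 191 and 159 in db/db-dapa mice. Its log2 fold change between db/db and db/m mice was 2.91 ± 0.97 (edgeR, adjusted p = 0.222), and it lay between 1.43 and 4.99 when 1 mouse was left out. Gsta1 followed it, with 0.666 to 7.15 CPM in db/m and 7.48 to 38.8 CPM in db/db mice, and a log2 fold change of 2.75 ± 0.81 (edgeR, adjusted p = 0.171). These are near-identical copies between which reads may have been divided, so neither value is certain. In this comparison both passed without db/m replicate 2, the highest of the db/m mice (adjusted p = 0.068 for Gsta2 and 0.0756 for Gsta1), and Gsta2 passed in limma with weights (0.0791). Between treated db/db and db/m mice both passed in limma with weights (0.021 for Gsta2 and 0.027 for Gsta1), and Gsta1 passed with only 2 groups in the fit (0.0957). Gstm2, also a glutathione transferase with close copies, had a log2 fold change of -1.64 ± 0.59 between treated db/db and db/m mice (edgeR, adjusted p = 0.214), and it passed with DESeq2 (0.0844), limma with weights (0.0201) and without db/db replicate 3 (0.0928). Ephx1, the microsomal epoxide hydrolase, was at 14.8 to 27.5 CPM in db/db and 11.6 to 16.3 in db/db-dapa mice, with a log2 fold change of -0.66 ± 0.28 (edgeR, adjusted p = 0.854) that passed in limma with weights at less than 2-fold (-0.88, adjusted p = 0.0895). Cyp2a5, a cytochrome P450, ranged from 44.9 to 344 CPM within the db/db mice, and its log2 fold change between treated db/db and db/m mice was -0.96 ± 0.59 (edgeR, adjusted p = 0.387). Without db/db replicate 3, the highest of all mice, Cyp2a5 was lower in db/db than in db/m mice by a log2 fold change of -1.94 (adjusted p = 0.0138), and limma with weights gave -1.65 (0.0846). Between treated db/db and db/m mice it passed in limma with weights (-1.09, adjusted p = 0.0427), and at less than 2-fold without that mouse (-0.95, 0.0681) and with only 2 groups in the fit (-0.95, 0.072).

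Of the 4 exporters, all had a log2 fold change above 0 between db/db and db/m mice, with a median of 0.70, and Abcc4 alone was called. Of all tested genes, 51.6% were above 0 in that comparison. The value was 0.35 ± 0.39 for Abcc1 and 0.09 ± 0.93 for Abcc3, which was at only 0 to 1.80 CPM. Between treated db/db and db/m mice Abcc1 was below 0 (-0.38 ± 0.39). Abcc2, which encodes MRP2, an exporter of glutathione conjugates into the urine, was at 273, 260 and 163 CPM in db/m, 241, 368 and 823 in db/db and 401, 713 and 885 in db/db-dapa mice. Every db/db-dapa mouse was above every db/m mouse, and 28.1% of all tested genes did not overlap in that comparison. The log2 fold change of 1.52 ± 0.43 (edgeR, adjusted p = 0.142) did not pass the threshold. It did so with DESeq2 (adjusted p = 0.0162), limma with weights (0.0052), no filter (0.0891), only 2 groups in the fit (0.0266), and when db/db replicate 1 (0.0924), db/db replicate 3 (0.0231) or replicate 1 of the treated mice (0.0946) was left out. In limma with weights Abcc2 also passed between treated and untreated db/db mice (1.05, adjusted p = 0.0921). With the trend by transcript length removed, the log2 fold change of Abcc2, whose longest transcript is 8.03 kb, was 1.13, and it did not pass.

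**Figure D5:**
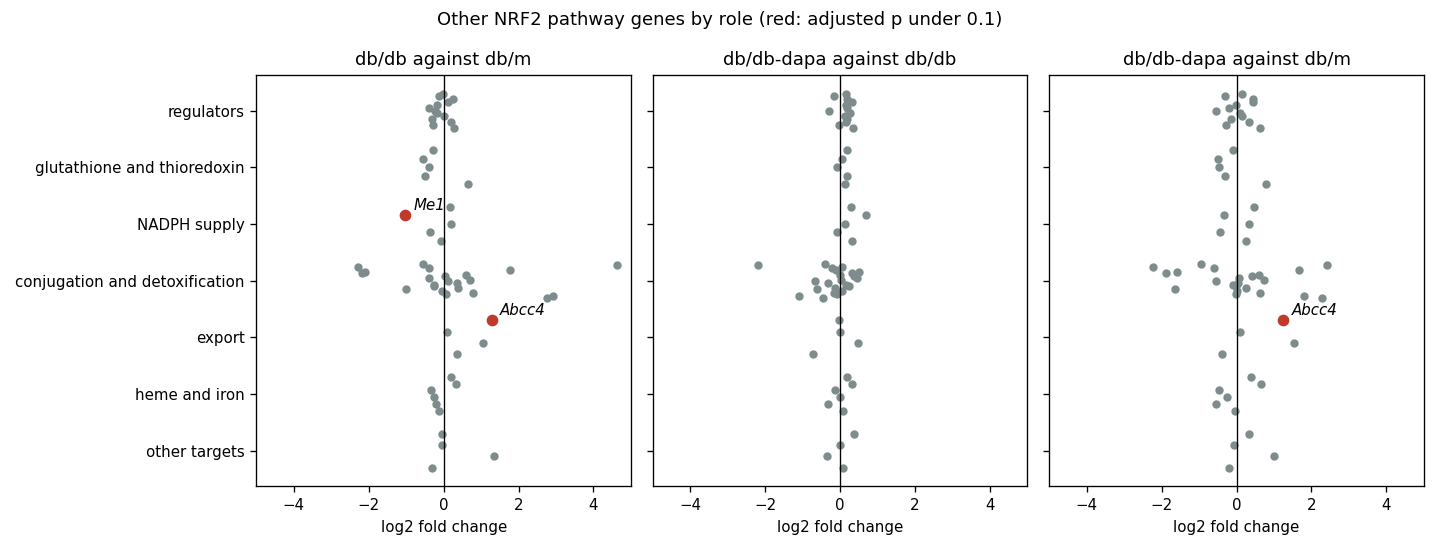
Log2 fold changes (horizontal axis) of the 59 other genes tested, by role (rows), in the 3 comparisons, from edgeR's fit, with an adjusted p under 0.1 in red. Me1 (-1.03) and Abcc4 (1.29) are red between db/db and db/m, none between treated and untreated db/db mice, and Abcc4 (1.25) between treated db/db and db/m mice, and the point farthest right between db/db and db/m is Aox1, which was at 0 in all db/m mice, so that its position is no measure of a fold.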

How the data were processed

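Each mouse's group and number come from its label, and sorting and treatment are as in the study's methods. Total RNA of the sorted cells of 3 mice per group was made by the authors into stranded poly(A) libraries, sequenced as single-end reads and mapped to mm10 with TopHat2 2.0.13, Bowtie2 2.2.3 and SAMtools 0.1.19, and Cufflinks 2.2.1 was used for FPKM. The deposited table carries FPKM in its name, yet it holds estimated counts per gene: of its non-zero entries, 85.9% are whole, and column sums run from 2733349 to 9033123. The step with which the authors produced them, and its use of strand, is not given in the sources used here. Of 24421 rows, 6100 were 0 in all mice.

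The 10 genes and all gene lists were chosen with earlier results of these data known. Values were rounded to whole counts, scaled by TMM, filtered at 0.3 CPM in at least 2 of 9 mice and compared in edgeR 4.0.16 (quasi-likelihood, earlier form) in R 4.3.3, with Benjamini-Hochberg adjustment over 15583 genes. Groups were the only term. Standard errors and 95% intervals of log2 fold changes were derived from the F value. DESeq2 1.42.0, limma 3.58.1, other scalings and filters, fits of 2 groups, a replicate block and leaving out each mouse were alternatives, and a fit with the transcript length trend removed was added after the data were seen. The fits were tested on simulated data. Counting 3 reads corresponds to 0.339 CPM in the largest and 1.02 CPM in the smallest library, for counting error only. Other pathway genes were named at an adjusted p under 0.1 in any comparison or as the 2 highest and 2 lowest log2 fold changes of a comparison at a mean of at least 10 CPM, and for the 3 genes with the largest range of group means the 3 most correlated genes were named. Coordinates and transcript lengths are GENCODE M21 (GRCm38), in which all 10 genes matched, and promoter windows are RefSeq (GRCm38.p6). Same-numbered mice of different groups correlated in their deviations at r = -0.323 to 0.563, and differently numbered mice at -0.61 to 0.359. The highest values, 0.563 and 0.402, were those of same-numbered db/db and db/db-dapa mice (replicates 3 and 1). These correlations do not settle whether the mice were paired. The sources used here state no pairing, and the numbers were not taken as pairs.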

Additional observations from a re-analysis of the deposited data

How the results depend on the processing

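The number of the 10 genes called was 0 under every alternative run, and the number with an adjusted p under 0.1 was 0 as well, except with limma's weight for each mouse (2 between treated and untreated db/db, 1 between treated db/db and db/m mice). The replicate block, a term for mice of the same number, left these counts at 0 and gave 185, 0 and 167 genes called in all, against 194, 0 and 164. No pairing by number is stated in the sources used here. With it, Gsta1 and Gsta2 passed in db/db against db/m (adjusted p = 0.0293 and 0.0314) and in treated db/db against db/m mice (0.0456 and 0.0779). Of the alternatives, DESeq2 called 363, 13 and 507 genes for untreated db/db against db/m, treated against untreated db/db and treated db/db against db/m mice. Limma with weights called 449 and 1619 in the latter comparisons, fitting only 2 groups called 115 in the first and 630 in the last, and no filter called 275 in the last. Leaving out 1 mouse gave 85 to 230, 0 to 272 and 14 to 664 genes; the highest of the last 2 ranges came without db/db replicate 3, and the lowest of the last without db/db-dapa replicate 2.

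Signs turned for log2 fold changes, most of them near 0, and the cause was not tested. In db/db against db/m mice, total counts gave 0.092 for Nqo1, 0.045 for Gclc, 0.048 for Txnrd1 and 0.089 for G6pdx, removal of the length trend gave 0.21 for Nqo1, -0.24 for Slc7a11 and 0.044 for G6pdx and limma with weights gave -0.032 for Hmox1 and 0.011 for G6pdx. In treated against untreated db/db mice, limma with weights gave 0.17 for Abcc4 and 0.56 for Cyp2a5, limma on log2(CPM + 1) gave 0.14 for Cyp2a5 and limma on log2(CPM + 0.1) gave 0.15 for Cyp2a5. In treated db/db against db/m mice, upper-quartile factors gave -0.012 for Nfe2l2 and -0.009 for Keap1, limma with weights gave -0.014 for Nfe2l2 and removal of the length trend gave -0.004 for Keap1.

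Leaving out 1 mouse gave ranges of log2 fold changes that crossed 0 for the following genes. In db/db against db/m mice, they were -0.029 to 0.12 for Nfe2l2, -0.21 to 0.30 for Nqo1, -0.32 to 0.29 for Hmox1, -0.26 to 0.11 for Gclc, -0.15 to 0.33 for Slc7a11, -0.24 to 0.17 for Txnrd1, -0.088 to 0.098 for G6pdx and -0.068 to 0.35 for Ephx1. In treated against untreated db/db mice, they were -0.094 to 0.076 for Nfe2l2, -0.087 to 0.42 for Nqo1, -0.16 to 0.21 for Abcc4, -0.83 to 0.44 for Gsta1, -1.53 to 0.38 for Gsta2 and -0.84 to 0.99 for Cyp2a5. In treated db/db against db/m mice, they were -0.039 to 0.11 for Nfe2l2 and -0.071 to 0.20 for Keap1. Slc7a11 had the fewest counts of the 10 genes, 12.5 to 17.0 per mouse.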
